A study of Mus musculus with 4 samples.

Results

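Cluster c5 is a group of cells that the authors set apart among stem cells sorted from mouse bone marrow, and it carries the working name of granulocyte-monocyte progenitors. Its members here were all 20062 genes listed in the authors' deposited table of c5 against the cells outside it, the same 20062 genes that the other tables of the series list. The series holds 2 samples of old and 2 of young Gfp-Lc3 mice, taken at steady state, in which green fluorescent protein is fused to the autophagosome protein LC3. The labels call the cells purified hematopoietic stem cells from bone marrow, while the sources used here do not give the surface proteins of the sort, the ages in numbers or the promoter of the fusion gene. All old and young samples carry the fusion gene. The tables hold no column for a sample or an age, so old cells were not compared with young cells here. The protocols and the design text disagree on how many droplet samples were made per condition, and which of the 4 samples gave cells to c5 is unknown.

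Granulocyte-monocyte progenitors descend from stem cells through multipotent progenitors and give rise to neutrophils and monocytes. An early neutrophil stage, the promyelocyte, fills primary granules with myeloperoxidase and serine proteases, under C/EBP alpha, PU.1 and RUNX1. Later stages, the first of which still divide, make secondary and tertiary granule proteins under C/EBP epsilon. IRF8 and KLF4 direct the monocyte branch. On the way, genes that keep stem cells in their state are shut off.

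The values are the authors' log2 fold changes, in which a cluster is set against all cells outside. They stop at -4 and at 4, where the difference is at least 16-fold. Genes with an adjusted p from the authors under 0.05 are termed called. How the clusters were drawn is not stated in these sources, and since the same genes may have defined them, the calls describe c5 and test nothing. The authors' deposited table had 1439 of 20062 genes (7.17%) called higher and 1865 (9.3%) called lower. Among the 10027 genes at or above the median of mean expression, 1053 (10.5%) were higher and 1858 (18.5%) were lower, and the median of these genes was -0.24. In all, 709 genes stood at the upper limit, 247 of them called, and 4855 at the lower limit, 3 of them called. From the tables c5 was estimated to hold 1.68% of the cells, with cell numbers, depth and the spread over mice unknown.

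**Figure D1:**
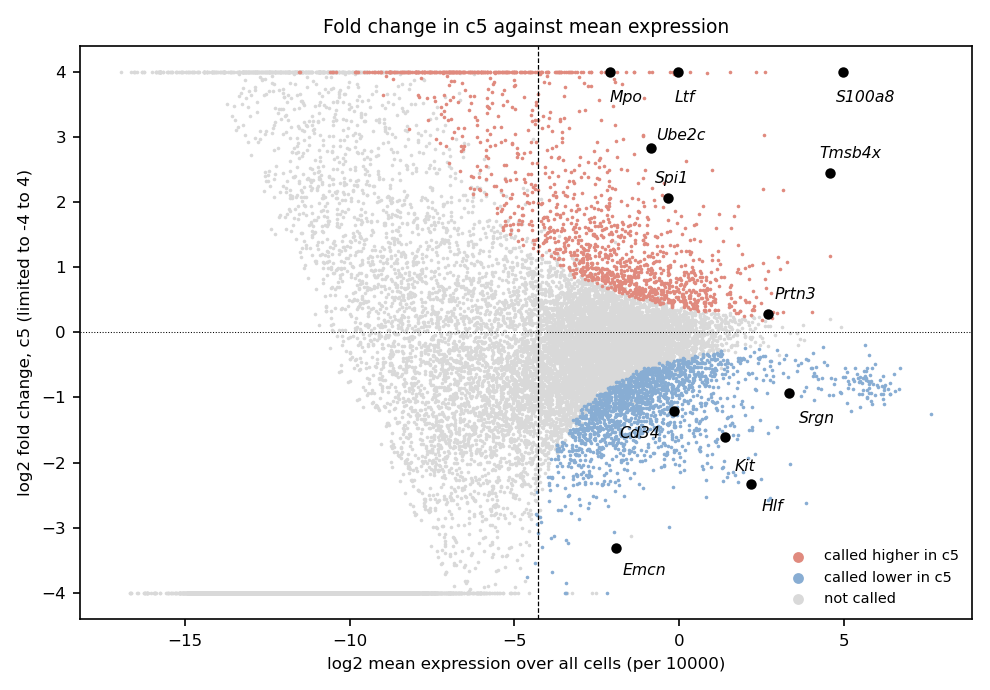
Each point is a gene, with log2 mean expression over all cells (normalised to 10000 per cell) on the x axis and log2 fold change in c5 on the y axis; red and blue mark called genes and the dashed line is the median mean expression. Mpo and S100a8 sat at the upper limit of 4, Prtn3 stood at 0.28 and the stem cell factor gene Hlf at -2.32, and most genes at the lower limit lay left of the dashed line.

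The 6 marker genes of granulocyte-monocyte progenitors were all at the upper limit in c5 and all called, beside 7.17% of all genes called higher. They are Mpo (myeloperoxidase), Elane (neutrophil elastase), Ctsg (cathepsin G), Ms4a3 (a membrane protein of this progenitor), Clec12a (an inhibitory lectin receptor) and Ly6c2 (the Ly6C antigen). The adjusted p in the authors' deposited table of c5 was 9.04e-14 for Mpo, 6.2e-14 for Elane, 2.9e-14 for Ctsg, 1.29e-17 for Ms4a3, 2.57e-43 for Clec12a and 4.16e-40 for Ly6c2. The markers parted into a pair of sets in the authors' deposited table of c6, a cluster with late neutrophil genes, where 2 of the 6 were called higher, beside 5.2% of all genes. Clec12a and Ly6c2 were at 4 there, whereas Mpo at -0.75, Elane at -1.32, Ctsg at -1.49 and Ms4a3 at 1.71 were not called in that authors' deposited table. The 6 markers in the authors' deposited tables of c3 and c4 ranged from -3.75 to -0.19 and from -3.61 to 0.14, with 4 called lower in each.

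Other genes of the same label went against it. Kit, the stem cell factor receptor, and Cd34, a sialomucin, both of which granulocyte-monocyte progenitors are known to carry on their surface, were called lower, at -1.61 (adjusted p = 6.36e-22) and -1.21 (adjusted p = 3.27e-05) in the authors' deposited table of c5. Prtn3, which encodes the granule protease proteinase 3, was not called at 0.28 (adjusted p = 0.559) in the authors' deposited table of c5, and its value in the authors' deposited table of c1 was 1.54. Genes of mature neutrophils and of monocytes, given below, were at the limit beside the markers. The cluster is therefore called c5 here. Whether its cells are progenitors, a mixture with later cells, or cells holding RNA of others cannot be told apart in these tables, and the sources do not say how doublets and free RNA were handled.

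**Figure D2:**
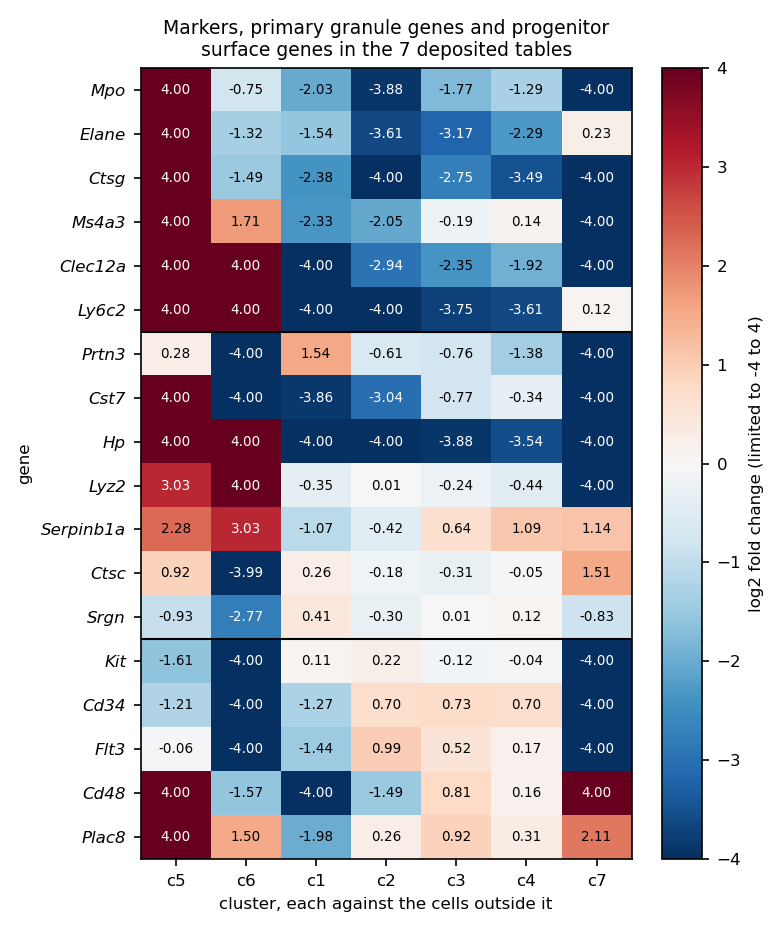
Log2 fold change of 18 genes (rows) in the authors' tables of the 7 clusters (columns), from blue at -4 to red at 4; lines part the 6 markers, the other genes of the primary granule list and progenitor surface genes. The 6 markers are at 4 in c5, where Prtn3 stands at 0.28, Kit at -1.61 and Cd34 at -1.21, and in c6 Clec12a and Ly6c2 are at 4 and Kit and Cd34 at -4.

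The stretches upstream of Mpo, Elane, Ctsg and Prtn3 are shown because the first 3 were at the upper limit in c5 and Prtn3, which lies next to Elane on chromosome 10, was not called. Each is the 250 bases before the start that RefSeq annotates on GRCm38.p6, written 5′ to 3′ along the gene, with capitals marking the motifs searched for on both strands: TTGCNNAA of C/EBP factors and GAGGAA of PU.1 and TGTGGT of RUNX factors. The stretch of Mpo is chr11:87793534-87793783 (plus strand), that of Elane chr10:79886062-79886311 (plus strand), that of Ctsg chr14:56102575-56102824 (minus strand) and that of Prtn3 chr10:79879417-79879666 (plus strand).
Mpo: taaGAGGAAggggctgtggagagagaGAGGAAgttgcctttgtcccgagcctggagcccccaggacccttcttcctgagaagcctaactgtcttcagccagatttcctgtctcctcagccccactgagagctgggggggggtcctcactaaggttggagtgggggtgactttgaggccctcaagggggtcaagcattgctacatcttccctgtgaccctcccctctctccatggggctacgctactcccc
Elane: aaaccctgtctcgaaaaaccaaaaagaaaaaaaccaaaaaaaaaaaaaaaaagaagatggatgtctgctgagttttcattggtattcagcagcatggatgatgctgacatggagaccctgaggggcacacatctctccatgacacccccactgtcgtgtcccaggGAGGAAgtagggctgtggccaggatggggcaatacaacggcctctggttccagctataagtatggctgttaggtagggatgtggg
Ctsg: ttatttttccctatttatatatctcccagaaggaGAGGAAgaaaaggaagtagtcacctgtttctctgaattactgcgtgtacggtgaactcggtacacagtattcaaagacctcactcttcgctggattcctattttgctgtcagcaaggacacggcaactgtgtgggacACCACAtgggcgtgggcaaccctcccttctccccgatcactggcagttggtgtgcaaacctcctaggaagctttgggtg
Prtn3: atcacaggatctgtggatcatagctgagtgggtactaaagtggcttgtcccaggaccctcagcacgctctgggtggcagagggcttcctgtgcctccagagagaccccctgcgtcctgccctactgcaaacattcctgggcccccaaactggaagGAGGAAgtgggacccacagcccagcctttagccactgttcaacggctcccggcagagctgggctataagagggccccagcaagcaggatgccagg

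All 4 stretches hold the PU.1 letters, which stand in 23.3% of the 32851 promoter stretches in the RefSeq table (several per gene for some genes). Mpo has 2 matches, starting 247 and 224 bases upstream of the start. Elane has 1 match 85 bases upstream and Prtn3 has 1 match 95 bases upstream, so the motif letters lie at similar distances in the neighbours whose values in the authors' deposited table of c5 were 4 and 0.28. Ctsg has 1 match 216 bases upstream and also the RUNX letters, on the other strand, 79 bases upstream. The RUNX letters stand in 14% of all promoter stretches and the C/EBP letters in 9.56%. Of the 13 markers and genes of the primary granule list, 11 matched the RefSeq table, with 13 stretches. Of these 11 genes, 7 hold the PU.1 letters, 6 the RUNX letters and 1, Clec12a, the C/EBP letters. By stretches these are 61.5%, 53.8% and 7.69% of the 13, beside 22.4%, 10.6% and 7.43% for the better expressed genes. For called genes at the upper limit in c5 with at least median expression, the shares were 43.8%, 22.9% and 27.1% of 48 stretches. What these shares mean for expression was not tested. The GENCODE gene models begin elsewhere for 3 genes, within the stretch for Mpo and Elane and farther upstream for Prtn3, so distances hold for the RefSeq start. A match is a run of letters and not a measured site.

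Primary granule genes were largely high in c5. Of 10 genes, 8 were higher and 1 was lower (median 3.51, or 0.92 without the 5 members at the limit). Besides Mpo, Elane and Ctsg, the authors' deposited table of c5 had Cst7, which encodes the protease inhibitor cystatin F, and Hp, which encodes the haemoglobin-binding granule protein haptoglobin, at 4. Hp counts among the 10, although its protein is known from secondary granules. Lyz2 (lysozyme) was higher at 3.03, Serpinb1a, an inhibitor of elastase, at 2.28 and Ctsc, which activates the granule proteases, at 0.92 in the authors' deposited table of c5. Srgn, which encodes the proteoglycan that packs granule proteases, was lower at -0.93 (adjusted p = 4.62e-08) in the authors' deposited table of c5. Hp and Lyz2, both at 4, were called in the authors' deposited table of c6 too, whereas Cst7 at -4 was not called there.

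Of 20 other genes known from early myeloid progenitors, 15 were higher and 2 lower (median 2.95). At 4 in the authors' deposited table of c5 were Plac8, Igsf6, Anxa3, a phospholipid-binding annexin, Fcnb (ficolin B), Trem3, Atp8b4 and Dmkn. Hk3, the hexokinase of myeloid cells, stood at 3.13, the microsomal transferase gene Mgst1 at 2.96 and Alas1, the first enzyme of heme synthesis outside the red lineage, at 2.56 in the authors' deposited table of c5. Cd63, a granule and lysosome membrane protein, was lower at -0.71, and the organic cation transporter gene Slc22a3 was lower at -1.92 in that authors' deposited table.

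Genes of late granules and mature neutrophils were higher for 17 of 18 (median 4.0). In the authors' deposited table of c5, S100a8 and S100a9, the calprotectin subunits, Lcn2, Ltf (lactoferrin), Camp (cathelicidin), Ngp, Chil3, Cd177, Wfdc21, Il1b, Orm1, Mcemp1 and Ifitm6 were at 4. Retnlg stood at 3.98, the metalloproteinase genes Mmp9 at 3.89 and Mmp8 at 3.84 and the chemokine receptor gene Cxcr2 at 3.77 in the authors' deposited table of c5. Padi4, which encodes the enzyme that citrullinates histones in neutrophils, was not called at 0.24. All 18 of the list were called higher in the authors' deposited table of c6, beside 5.2% of all genes, with 17 at 4 and Padi4 at 2.98. The tables of c5 and c6 share the cells of the other 5 clusters on the other side of the comparison, and each cluster counts among the cells outside the other.

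The monocyte genes were high in c5, whereas most of them were not called in c6. All 14 were higher in c5 (median 4.0, or 2.69 without members at the limit). The monocyte regulators Irf8 and Klf4 were at 4, with Csf1r (the receptor for M-CSF), Ccr2 and Cx3cr1 (chemokine receptors), F13a1, Fn1 (fibronectin), Ly86, Lgals3 (galectin 3) and Tifab, in the authors' deposited table of c5. The cysteine protease gene Ctss stood at 3.92, Ms4a6c at 2.69 and S100a4 at 0.97 there. In the authors' deposited table of c6, 2 of these 14 were called higher, Lgals3 at 4 and Csf1r at 3.78, and 2 were called lower, Ms4a6c and S100a4, both at -4, beside 35.7% of all genes called lower. Irf8, Ccr2, F13a1, Ly86, Fn1, Klf4, Cx3cr1 and Tifab were listed at -4 in the authors' deposited table of c6 and not called. There 11373 of all 20062 genes stood at -4. Of the 14 monocyte genes, 6 were at or above the median of mean expression, against 16 of the 18 late granule genes.

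**Figure D3:**
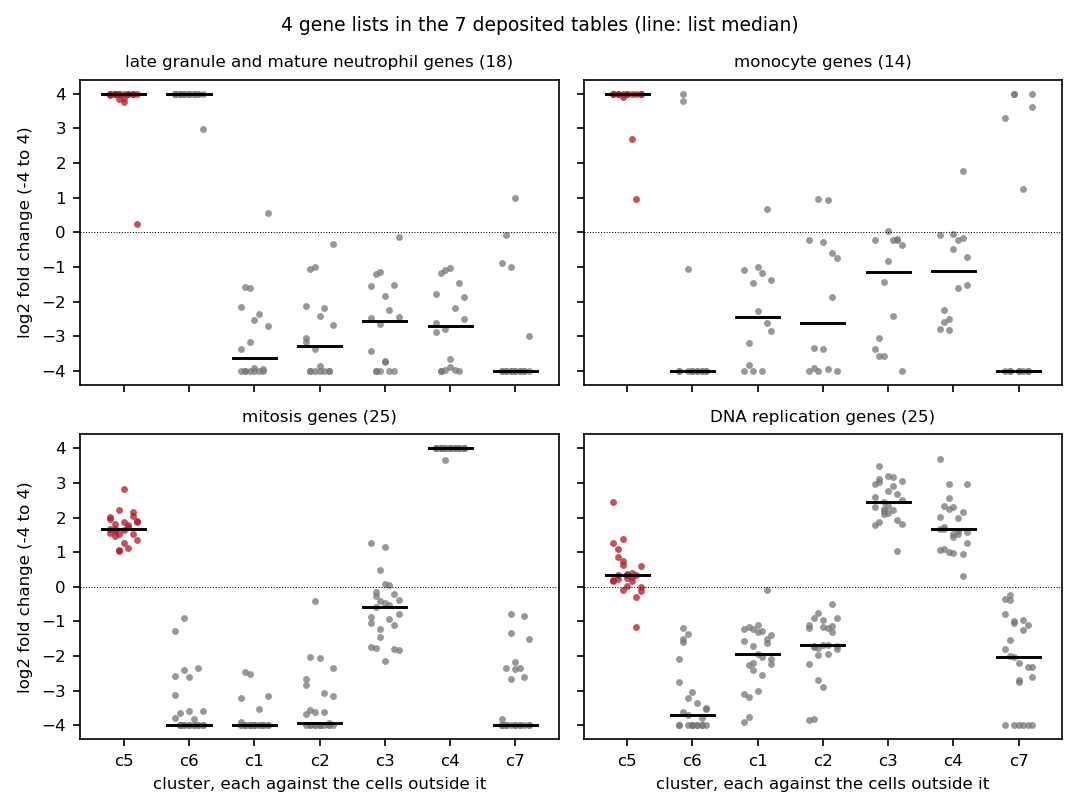
Log2 fold change of each member (points) of 4 gene lists in the authors' tables of the 7 clusters, c5 in red, with the list median as a line. Late granule genes have a median of 4 in c5 and c6, and monocyte genes 4 in c5 and -4 in c6. In c6, 10 of the 14 monocyte genes were not called, and 11373 of all 20062 genes stood at -4. Mitosis genes have a median of 1.67 in c5 and 4 in c4, and DNA replication genes 0.33 in c5, 2.45 in c3 and 1.67 in c4.

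Most transcription factors of the granulocyte and monocyte branches were higher: 11 of 16, with 1 lower (median 2.12). Cebpa, which starts granulocyte differentiation, and Cebpe, which drives the late granule genes, were at 4 in the authors' deposited table of c5, as were Irf8 and Klf4. Cebpd stood at 3.47, Irf5 at 2.70, Gfi1, a repressor needed for neutrophils, at 2.15, the retinoic acid receptor gene Rara at 2.09, Spi1, which encodes PU.1, at 2.06, Cebpb at 1.92 and Zeb2 at 0.72 in the authors' deposited table of c5. Myb, which sustains immature progenitors, was lower at -1.01. Runx1 at -0.39, Egr1 at -1.08, Tfec at -0.14 and Egr2 at 4 were not called. Of 15 factors of other lineages 8 were lower and 1 higher, with Gfi1b at -2.27, Lmo2 at -2.02, Gata2 at -1.80, Zfpm1 at -1.70 and Tal1 at -1.59 in the authors' deposited table of c5, where Ikzf1 stood at 0.82.

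Of 19 cytokine receptors, 9 were higher and 2 lower (median 0.70). The receptors for M-CSF (Csf1r, 4), GM-CSF (Csf2rb at 2.97 and Csf2ra at 1.68), IL-6 (Il6ra at 2.70), G-CSF (Csf3r at 1.58) and IL-3 (Il3ra at 1.42) were higher in the authors' deposited table of c5. Among the lower genes was Kit, at -1.61 in the authors' deposited table of c5. Flt3, the receptor of lymphoid-primed progenitors, was not called at -0.06. Csf3r at 3.38, Csf2rb at 3.50, Csf2ra at 2.38 and Il6ra at 2.20 were called in the authors' deposited table of c6 too.

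Genes of the oxidative burst of phagocytes were higher. All 8 genes of the phagocyte NADPH oxidase that the tables hold (of 9 listed) were higher in c5, beside 7.17% of all genes. Their median was 2.16, or 1.6 without members at the limit. In c6, 7 of the 8 were called higher (median 3.61), beside 5.2% of all genes. Cybb, the catalytic subunit, and the cytosolic subunits Ncf1 and Ncf4 were at 4 in the authors' deposited table of c5. Other parts stood at 2.48 for Cyba and 1.60 for the GTPase gene Rac2 in the authors' deposited table of c5. Of 16 pattern and Fc receptors and their adaptors (17 listed), 11 were higher in c5, 0 lower and 5 not called (median 4.0, or 1.08 without members at the limit). In c6, 12 of the 16 were called higher (median 3.89). Fcgr3 and Fcgr2b (receptors for IgG), the adaptor gene Tyrobp, Cd33, Clec5a, Clec4a2, Lilrb4a and Pirb were at 4 in the authors' deposited table of c5, and the adaptor gene Fcer1g was at 3.97. The Toll-like receptor genes Tlr2 at 0.86, Tlr4 at -0.11, Tlr6 at 0.53 and Tlr1 at 4 were not called, nor was Cd14 at 2.22, whereas the adaptor gene Myd88 was higher at 1.08 in the authors' deposited table of c5.

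Adhesion genes were called in both directions. Beside the counts of this and the next 2 lists, 10.5% of the better expressed genes were called higher in c5 and 18.5% lower. The lower counts of adhesion genes and of protease inhibitors are near that share. The integrin genes Itgal and Itgam were at 4, their partner Itgb2 at 3.56, Cd44 at 1.35, Selplg at 1.32 and the homing receptor gene Cxcr4 at 0.97 in the authors' deposited table of c5. Esam at -1.70, Jam3 at -1.69 and Itga6 at -0.86 were lower in that authors' deposited table, and in all 7 of 15 were higher and 3 lower. Of the leukotriene synthesis genes, Alox5 at 4, Lta4h at 1.94 and Alox5ap at 1.05 were higher in the authors' deposited table of c5, and Ltc4s at -1.95 and the phospholipase gene Pla2g4a at -0.94 were lower. Hpgd, which degrades prostaglandins, was at 4, and these 8 eicosanoid genes counted 4 higher and 2 lower. Protease inhibitors counted 3 higher and 2 lower of 13, with Slpi, the leukocyte protease inhibitor gene, at 4 and Serpina3g at -1.73 in the authors' deposited table of c5.

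Stem cell genes were low in c5. Of 18 stem cell identity genes 17 were lower, beside 9.3% of all genes, and 0 were higher (median -1.80). The transcription factor genes Hlf at -2.32, Mecom at -2.27 and Meis1 at -2.23 were lower in the authors' deposited table of c5. So were the kinase inhibitor gene Cdkn1c at -2.04, Hoxa9 at -1.95, Mllt3 at -1.87 and Ly6a (Sca-1) at -1.81 there. The surface receptor gene Procr at -1.66 and Slamf1 (CD150) at -1.10 were also lower in that authors' deposited table. Tek, the angiopoietin receptor gene, was not called at -1.21. All 18 were at -4 in the authors' deposited table of c6, where the median of the 10027 better expressed genes was -2.24. Of 18 genes known to be high in stem cells of old mice, 5 were lower and 0 higher in c5 (median -0.54), with Fhl1 at -1.27, Plscr2 at -1.23, the retinal dehydrogenase gene Aldh1a1 at -1.14, Sult1a1 at -1.01 and Cavin2 at -0.99 in the authors' deposited table.

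Of 10 genes that multipotent progenitors gain, 7 were higher and 2 lower (median 2.64). Cd48, a surface protein that stem cells lack, was at 4 with Cd52 and Plac8, and Cd53 stood at 3.25, Emb at 2.03 and the chromatin organiser gene Satb1 at 1.92 in the authors' deposited table of c5. Cd27 at -1.51 and Cd34 at -1.21 were lower there. Cd48 was at -1.57 and not called in the authors' deposited table of c6 and at 4 in that of c7.

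**Figure D4:**
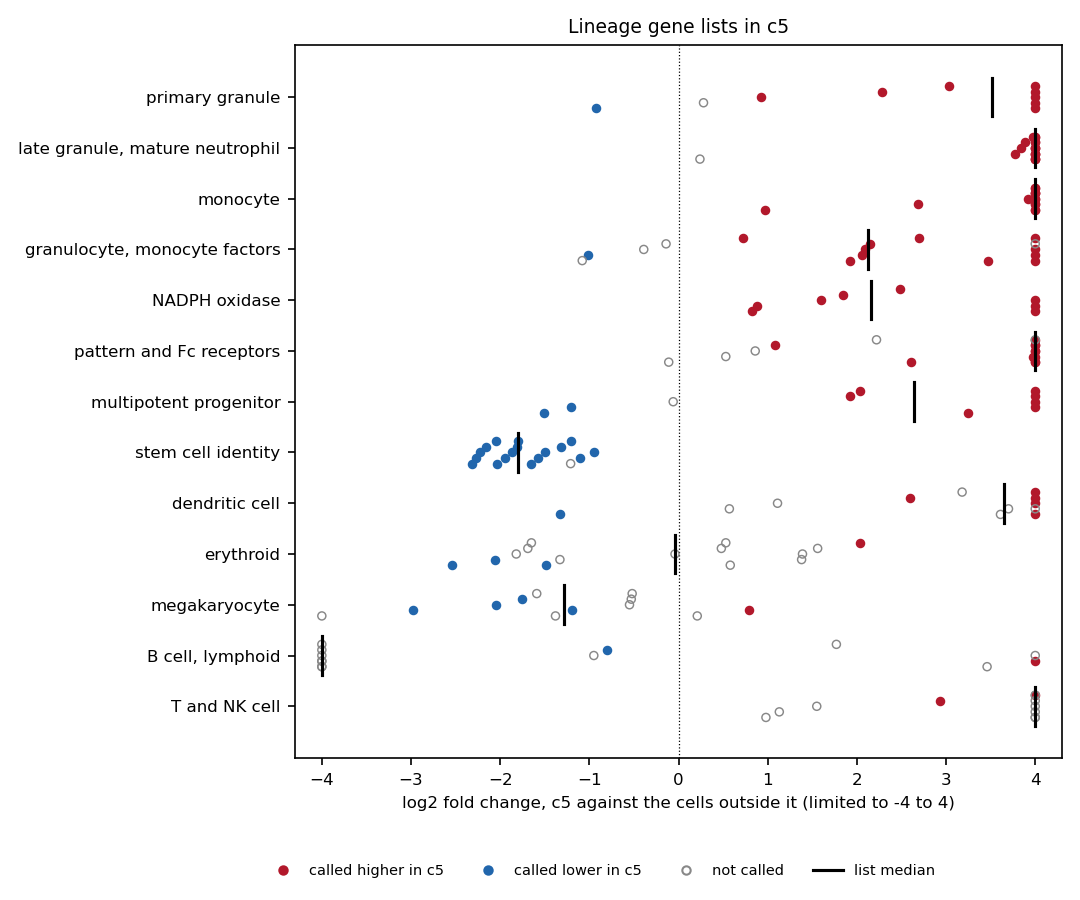
Log2 fold change in c5 (x axis) of every member of 13 lineage lists (rows); filled points were called, open points were not, and the bar is the list median. Stem cell identity genes lie between -2.32 and -0.95 with 17 of 18 called lower, and all 14 monocyte genes lie between 0.97 and 4, whereas most B cell and T cell genes are open points at a limit.

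Genes of other cell types were also examined as a check on the cells in c5, where 7.17% of all genes were called higher and 9.3% lower. At or above the median of mean expression were 3 of the 12 dendritic cell genes named next. It was 0 of the 10 macrophage genes and 0 of the 10 eosinophil, basophil and mast cell genes, so values at a limit there come from genes of low expression. Of 12 dendritic cell genes 5 were higher and 1 lower, with Cd209a, Batf3, Cd7 and Klrd1 at 4, Id2 at 2.60 and Tcf4 at -1.33 in the authors' deposited table of c5, and Siglech at 4 and Clec9a at 3.18 not called. Of 10 macrophage genes 4 were higher, Adgre1 and Vcam1 at 4, the iron exporter gene Slc40a1 at 3.46 and Hmox1 at 2.15 in the authors' deposited table of c5, and C1qa at 2.22, C1qb at 2.66 and C1qc at 2.90 were not called. Of 10 eosinophil, basophil and mast cell genes (of 13 listed) 1 was called higher in c5, beside 7.17% of all genes. It was Hdc, the histidine decarboxylase gene, at 4, which was also at 4 and called in the authors' deposited table of c6.

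Among 13 B cell and lymphoid genes, 1 was higher and 1 lower in c5, near the 7.17% and 9.3% of all genes. Ighm, the heavy chain of IgM, was at 4 (adjusted p = 7.19e-17) and Cd79b was lower at -0.80, while the B cell defining genes Cd79a, Ms4a1, Ebf1 and Pax5 stood at -4 and were not called in the authors' deposited table of c5. Of these 13, 9 were called higher in the authors' deposited table of c7, beside 1.02% of all genes. Of 11 T and NK cell genes, Cd3d at 4 (adjusted p = 0.0256) and Nkg7 at 2.93 were called higher in c5, and Cd3e, Cd3g, Cd8a, Trac, Gzma and Ncr1 stood at 4 uncalled in the authors' deposited table. Of 9 endothelial and stromal genes (of 10 listed), Lepr was higher at 3.14 and Emcn lower at -3.30 in the authors' deposited table of c5. These single genes stand beside 7.17% of all genes called higher and 9.3% called lower. The part of other cells in the values of c5 was not tested.

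Of 15 erythroid genes 1 was higher and 3 were lower, beside 7.17% and 9.3% of all genes in c5. Tfrc, the transferrin receptor gene, which dividing cells also use, was higher at 2.04, whereas Car2 at -2.54, Hbb-bt at -2.06 and Icam4 at -1.49 were lower, and Hba-a1 at 1.38, Klf1 at -1.33 and Gata1 at -1.82 were not called in the authors' deposited table of c5. Of the same 15, 13 were called higher in the authors' deposited table of c3, beside 18.1% of all genes. Of 12 megakaryocyte genes 4 were lower and 1 was higher, and among them were Pf4 (platelet factor 4) at -2.98, Gp9 at -1.75, Itga2b at -1.19 and Plek at 0.79 in the authors' deposited table of c5.

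The mitosis genes were higher in c5 without exception. All 25 were higher (median 1.67), from Ttk at 1.03 to Ube2c, which encodes the ubiquitin-conjugating enzyme of the anaphase-promoting complex, at 2.82 in the authors' deposited table of c5. The survivin gene Birc5 stood at 2.21, the kinase genes Plk1 at 2.16 and Aurka at 1.95, the cyclin genes Ccna2 at 2.05, Ccnb2 at 2.01 and Ccnb1 at 1.88, Mki67 at 1.87, Top2a at 1.66 and Cdk1 at 1.65 in the authors' deposited table of c5. The same 25 were all called higher in the authors' deposited table of c4, beside 24.3% of all genes, with 24 of them at 4. Of these 25, 22 were called lower and 0 higher in the authors' deposited table of c6, at values from -4 to -0.89, with Ube2c, Plk1, Ccnb1 and Cdk1 at -4.

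DNA replication genes gave a different count. Of 25, 4 were higher and 1 was lower (median 0.33), and 20 were not called. Among the better expressed genes, to which 24 of the 25 belong, 10.5% were higher and 18.5% lower in c5. The higher ones were Rrm2, a subunit of ribonucleotide reductase, at 2.46, the replication helicase genes Cdc45 at 1.37 and Mcm5 at 0.85, and the flap endonuclease gene Fen1 at 0.73 in the authors' deposited table of c5, and the histone chaperone gene Chaf1b was lower at -1.15. All 25 were called higher in the authors' deposited tables of c3 and c4, with medians of 2.45 and 1.67. Mcm5 stood at 3.02 in c3 and Rrm2 at 3.68 in c4 in these authors' deposited tables.

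The regulators of the cell cycle's first phase were mixed, with 5 of 15 higher and 3 lower. Among the better expressed genes, to which 13 of the 15 belong, 10.5% were higher and 18.5% lower in c5, and the lower count is near that share. The antiproliferative genes Btg2 at 2.10 and Btg1 at 0.92, the kinase inhibitor genes Cdkn2d at 1.15 and Cdkn2c at 0.93, and the cyclin gene Ccnd3 at 0.41 were higher in the authors' deposited table of c5. Cdkn1c at -2.04, the cyclin gene Ccnd2 at -1.64 and the kinase gene Cdk4 at -0.47 were lower in that authors' deposited table.

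The secretory pathway, through which granule proteins pass, was higher in part, and more of its genes were called higher in c3 and c4. Beside the counts in c5 that follow, 10.5% of the better expressed genes were called higher and 18.5% lower. Of 16 endoplasmic reticulum chaperones and disulfide isomerases, 8 were higher and 0 lower (median 0.54), led by Sdf2l1 at 1.66, Erp29 at 1.00, the isomerase gene P4hb at 0.77 and Hspa5 (BiP) at 0.73 in the authors' deposited table of c5. All 16 were called higher in c3 (median 0.44) and 15 in c4 (median 0.46), beside 18.1% and 24.3% of all genes. Of 23 genes of translocation, signal cleavage and glycosylation, 9 were higher and 0 lower (median 0.31), with the signal peptidase subunit genes Sec11c at 0.84 and Spcs3 at 0.67 and the translocon gene Sec61b at 0.47 in the authors' deposited table of c5. Of these 23, 17 were called higher in c3 (median 0.23) and 23 in c4 (median 0.41). Of 12 stress response genes, 4 were higher and 2 lower (median 0.36): Chac1 at 3.93 (adjusted p = 0.04), Edem1 at 2.13, Xbp1 at 0.55, Atf4 at 0.48, Ppp1r15a at -1.15 and Trib3 at -2.20 in the authors' deposited table of c5.

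Ribosomal protein genes were lower. Of 83 cytosolic ribosomal protein genes, taken by a name pattern, 78 were lower and 0 were higher (median -0.76). The called ones ran from Rpl36a at -1.21, Rpl3 at -1.14 and Rpl21 at -1.10 to Rps25 at -0.46, Rpl7a at -0.43 and Rpl41 at -0.35 in the authors' deposited table of c5. Many of these genes have near-identical pseudogenes, between which the counting may have divided reads. Of the 83, 68 were called lower in c4, 80 in c6 and 48 in c7. In c1 and c2, 72 and 69 were called higher, and c3 had 30 higher and 16 lower. Among the better expressed genes 18.5% were called lower in c5, with a median of -0.24. Translation factors were split in sign: 8 of 16 had values above 0 and 8 below, 6 were called lower, 0 higher and 10 were not called, with the elongation factor genes Eef1g at -0.93, Eef1a1 at -0.88, Eef1b2 at -0.86 and Eef2 at -0.69 in the authors' deposited table of c5. Of 24 MYC family and ribosome biogenesis genes, 7 were lower, 0 higher and 17 not called (median -0.31), with Mycn at -1.28 and Npm1 at -0.84 in the authors' deposited table of c5, and Myc at -0.47 was not called. All 24 belong to the better expressed genes, and centred on the median of those genes the list median was -0.08. All 13 mitochondrially encoded genes were lower, between -0.87 for mt-Cytb and mt-Nd6 and -0.41 for mt-Nd1 in the authors' deposited table of c5.

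**Figure D5:**
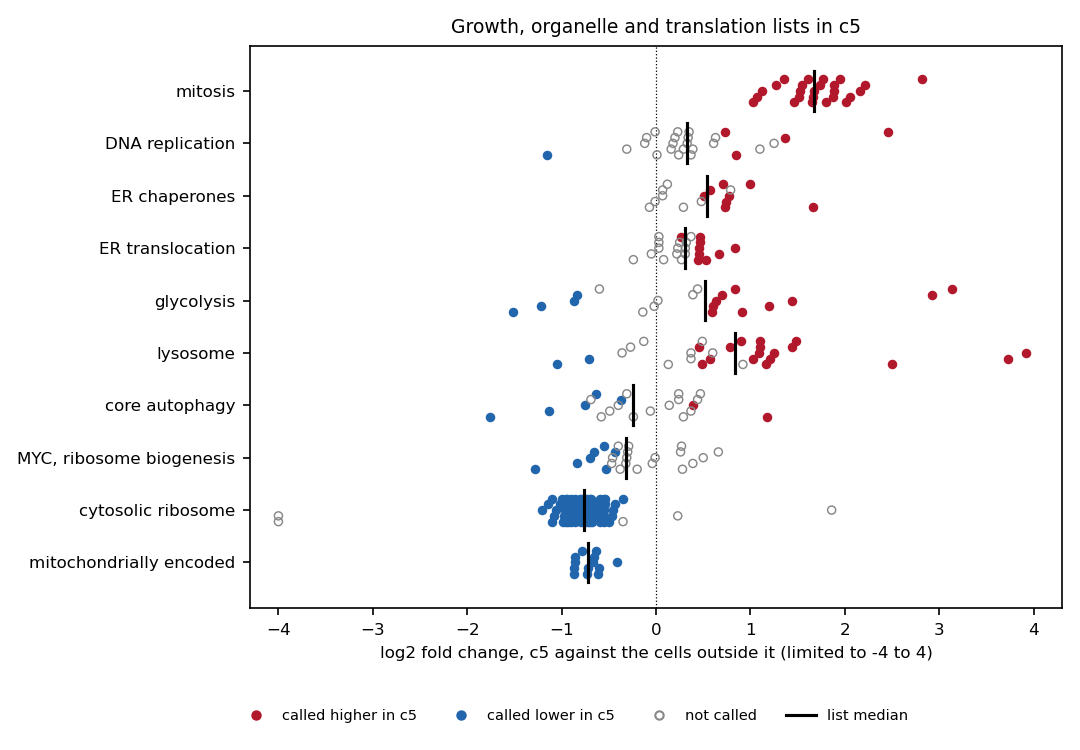
Log2 fold change in c5 (x axis) of every member of 10 growth, organelle and translation lists (rows); filled points were called, open points were not, and the bar is the list median. All 25 mitosis genes lie between 1.03 and 2.82, whereas 78 of 83 cytosolic ribosomal protein genes and all 13 mitochondrially encoded genes were called lower, with medians of -0.76 and -0.72.

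Nuclear genes of the respiratory chain stood apart from the mitochondrially encoded ones in sign: 26 of 74 were higher and 3 lower (median 0.20), led by Ndufa1 at 0.93, Ndufb7 at 0.92 and Cox5a at 0.85, with Atp5s at -1.10, Uqcrh at -0.44 and Atp5g2 at -0.36, in the authors' deposited table of c5. Of 78 mitochondrial ribosomal proteins, 9 were higher and 3 lower (median 0.02). The higher count was near the 10.5% of better expressed genes called higher, and the lower count was under the 18.5% called lower. Among them were Mrpl33 at 1.11, Mrpl58 at 0.94, Mrpl51 at 0.73, Mrps5 at -0.48, Mrpl23 at -0.55 and Mrpl52 at -1.15 in the authors' deposited table of c5. Of 39 proteasome subunits, 7 were higher and 0 lower, with Psmd13 at 0.79, Psmb3 at 0.78 and Psma2 at 0.55 in the authors' deposited table of c5. The proteasome median of 0.06 became -0.01 as a mean.

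Of 20 glycolysis genes, 10 were higher and 4 lower (median 0.52). Hk3 at 3.13, the lactate exporter gene Slc16a3 at 2.92, Pgam1 at 1.44, Eno1 at 1.20 and Gapdh at 0.60 were higher in the authors' deposited table of c5, while the isoform genes Aldoc at -1.51, Ldhb at -1.22 and Hk1 at -0.87 and Pfkl at -0.84 were lower. Ldha, the lactate dehydrogenase isoform of glycolytic tissue, was not called at 0.02. Of 13 antioxidant genes, 6 were higher and 2 lower (median 0.11), with the glutathione reductase gene Gsr at 3.03, Mgst2 at 2.78, Prdx5 at 1.81, Gpx1 at 1.06 and Prdx2 at -1.05 in the authors' deposited table of c5. Of 18 genes of serine, folate-cycle and nucleotide synthesis 1 was higher and 3 were lower, beside 10.5% and 18.5% of the better expressed genes. They were Mthfd2 at 1.82, Impdh2 at -0.74, Phgdh at -0.60 and Paics at -0.59 in the authors' deposited table of c5. Of 8 heme synthesis genes Alas1 was higher at 2.56 and Alad lower at -0.91 in the authors' deposited table of c5. These counts also stand beside 10.5% and 18.5% of the better expressed genes, and the other 6 were not called.

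Among 28 lysosomal genes 17 were higher and 2 lower (median 0.84). The protease genes Ctss at 3.92, Lgmn at 3.73 and Ctsh at 2.50, Tfeb, a transcription factor of lysosome genes, at 1.44 and Lamp1 at 0.90 were higher in the authors' deposited table of c5, and Ctsl at -1.05 was lower beside Cd63 at -0.71. Of 21 core autophagy genes, the subject of the series, 2 were higher and 5 lower (median -0.24, equal to the median of the better expressed genes). These counts are near the shares of 10.5% higher and 18.5% lower among the better expressed genes, to which all 21 belong. Atg3, which encodes the enzyme that transfers LC3 to lipid, was higher at 1.17, and Gabarap at 0.39, in the authors' deposited table of c5. The lower ones were the LC3 family genes Gabarapl1 at -1.76, Map1lc3b at -0.64 and Gabarapl2 at -0.37, the lipid kinase subunit gene Atg14 at -1.13 and the initiation complex gene Rb1cc1 at -0.75 in the authors' deposited table of c5. Whether reads of the Gfp-Lc3 fusion counted under Map1lc3b is unknown here. Of 10 autophagy receptors 1 was called, Retreg1, a receptor for endoplasmic reticulum, at -1.22, and Sqstm1 at -0.25 was not called in the authors' deposited table of c5.

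Of 24 interferon response genes, 10 were lower and 1 was higher (median -0.53). Ifitm1 at -2.63, Ifit1 at -1.64, Gbp2 at -1.56, Isg15 at -1.12 and Ifitm3 at -0.98 were lower in the authors' deposited table of c5, and Ifi27l2a was higher at 3.77. Of 13 genes of antigen presentation by class I, 7 were lower and 0 higher (median -0.67), with H2-Q7 at -1.57, H2-K1 at -1.04 and B2m at -0.67 in the authors' deposited table of c5. None of the 8 class II genes was called, with values from -1.10 for H2-Oa to 0.76 for Ciita in the authors' deposited table of c5. Immediate early genes were split, with 5 of 21 higher and 5 lower: Klf4 at 4, Klf2 at 3.79, Btg2 at 2.10, Klf6 at 0.96 and Ier5 at 0.83, against Ier3 at -1.62, Fosb at -1.48, Dusp2 at -1.15, Jun at -1.09 and Jund at -1.0 in the authors' deposited table of c5.

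The 15 highest values were taken from called genes of at least median mean expression, with predicted genes left out, and since all were at the limit they are ordered by p. Among them were Cd52, Tyrobp, Hp, Clec12a, Ly6c2, Igsf6, Ncf1, Ncf4, Anxa3, Fcgr3, Plac8, Sorl1, Slpi and Cybb in the authors' deposited table of c5. All of these named genes except Sorl1, a sorting receptor, belong to lists above. The 15 lowest held 2 list members, Emcn and Pf4. Shisa8 and Rgs7bp, a membrane anchor for RGS proteins, were at -4, followed by Nrk at -3.84, the ubiquitin ligase gene Rnf180 at -3.68, Emcn, the endomucin gene of stem and endothelial cells, at -3.30, Mindy4 at -3.29, Nsg1 at -3.23 and Fam181b at -3.19 in the authors' deposited table of c5. The actin-bundling gene Fscn1 at -3.12, Plxdc2 at -3.07, Pf4 at -2.98, the centrosomal gene Cep112 at -2.91, Mamdc2 at -2.86, Gnat2 at -2.84 and Adam22 at -2.78 completed them in that authors' deposited table.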

How the data were processed

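The authors' deposited tables hold, per gene, a log2 mean expression, a log2 fold change against the cells outside the cluster, a p-value and an adjusted p-value. The means are the same in all 8 tables and 2 raised to them summed to 10000.0 over genes. The 8 genes with an error text for the mean counted as unexpressed. Scanpy, GSNAP and HTSeq with GRCm38.p4 were used per the submitters' processing notes. For the tables, the sources used here give no assay, test, cell number, depth or handling of doublets. The deposited adjustment matched Benjamini-Hochberg over 20062 genes within 3.22e-15. The tables resolve no sample, so no value has a replicate error. If the p-values were computed over cells, they describe these cells and not mice.

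Members of 48 gene lists, chosen with earlier results of these data known, were counted over the whole table. Named genes were the markers, the 15 highest and 15 lowest called genes with at least the median expression and no predicted name (ties ordered by p, then by expression), list members and, for lists from a name pattern, the 3 highest and 3 lowest called. The share of c5 was estimated by weighting the 7 clusters so that their means gave the mean of all cells. It used 990 genes between -5 and -3 in log2 mean with no value at a limit. Simulated data given to the estimator averaged exactly to the overall mean, so they could not show whether the deposited values do. For 66 genes at 2 to 3 in c5, log2 folds rebuilt from the other tables differed from the deposited ones by a median of 0.16 and at most 2.06. The share rests on the same averaging, and its error is unknown. Levels within c5 are not reported: Plac8, at 4 or above in the deposited table, came out at 2.71 when its log2 fold was rebuilt from the other tables. Some genes that this rule takes are not shown. Other thresholds, expression limits, centring and list means were tried. Python 3.11.15 was used with numpy 2.4.6, pandas 2.3.3 and scipy 1.17.1.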

Additional observations from a re-analysis of the deposited data

How the results depend on the processing

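No paired analysis was possible because the tables resolve no sample, and for the same reason no replicate could be left out. Asking also for an absolute log2 fold change of 1 or more, the genes called in c5 numbered 927 higher and 1020 lower. The other settings for these counts stayed within 1.5 times of the main ones: 1053 to 1192 higher and 1253 to 2211 lower. The share of cells in c5 ran from 1.63% to 1.82% over 3 other settings. Leaving out members at a limit, which removes the most extreme values, lowered several list medians. They fell from 3.51 to 0.92 for primary granule, 2.95 to 1.44 for other early myeloid and 4.0 to 1.08 for pattern and Fc receptor genes. Others fell from 4.0 to 1.34 for T and NK cell, 2.64 to 0.93 for multipotent progenitor and 0.92 to 0.27 for protease inhibitor genes. The median also fell from 4.0 to 2.69 for monocyte, 2.16 to 1.6 for NADPH oxidase, 3.66 to 2.6 for dendritic and 4.0 to 3.04 for eosinophil, basophil and mast cell genes. With expressed members alone it was 1.11 in place of 3.66 for dendritic, 1.55 in place of 4.0 for T and NK cell, -2.41 in place of -1.49 for endothelial and -1.49 in place of -0.04 for erythroid genes. The mean was -0.23 for endothelial, -1.27 for B cell, 0.96 for adhesion, 0.70 for antioxidant and 0.82 for immediate early genes, where the medians were -1.49, -4.0, 0.26, 0.11 and 0.33. Some list medians changed sign. Centred on the better expressed genes, the median turned to 0.20 for erythroid, 0.01 for heme synthesis, 0.15 for serine and nucleotide synthesis and 0.09 for MHC class II genes. With members at a limit left out it turned to 0.48 for B cell, -0.11 for adhesion and -0.53 for eicosanoid genes. With expressed members alone it turned to -0.22 for protease inhibitors and -0.53 for eicosanoid genes, and as a mean to 0.06 for heme synthesis and -0.01 for the proteasome. Values at a limit give no size beyond 16-fold, and depth per cell is unknown, so a gene listed at -4 and not called is not shown to be absent.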

Other observations

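Several genes outside the lists had small p-values in c5, and those named here were chosen after their values were seen. Tmsb4x, which encodes the actin-binding peptide thymosin beta 4, stood at 2.44 (adjusted p = 1.07e-71) in the authors' deposited table of c5 and at 3.58 in that of c6. The authors' deposited table of c5 also gave 3.02 for Cotl1, an actin-binding protein, 1.81 for Actr3, a subunit of the Arp2/3 complex that branches actin, 1.94 for Arhgdib, 1.78 for Sh3bgrl3, 2.11 for Fam49b and 3.81 for the annexin gene Anxa2. The authors' deposited table of c6, which shares the cells of the other 5 clusters with that of c5, gave 4 for Cotl1, 2.64 for Actr3, 2.94 for Arhgdib, 2.26 for Sh3bgrl3, 2.30 for Fam49b and 4 for Anxa2.

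Other genes with small p-values were Msrb1, which repairs oxidised methionine, at 3.59 and Taldo1, the transaldolase of the pentose phosphate pathway, at 1.94 in the authors' deposited table of c5. Among the lower ones were Ctla2a at -2.57 and the adhesion receptor gene Adgrg1 at -2.26 in the authors' deposited table of c5, and both were at -4 in that of c6.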
